A study of Mus musculus with 3 samples.

Results

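The genes described here are 8 components and regulators of the complement system, C3, C4b, C1ra, Cfb, Cfi, Serping1, Cd55 and Cd59a, together with Clu, which encodes clusterin. They were taken by symbol from the deposited expression table, and all 9 had 1 row each among its 24523 genes. RNA came from cultured mouse cells of SCLC (small cell lung cancer), line 3 of the submitters. The control library came from cells given the Lenti-Crispr-V2 vector with no guide named (control vector, n = 1). The Kdm1a knock-out comprised cells given that vector with guide RNA sg1, and others with sg2, each sequenced in 1 library (n = 2). Kdm1a encodes LSD1, a histone lysine demethylase, and all cells, the controls included, were infected and kept in puromycin for at least 1 week. The labels do not say whether the infected cells were pools or clones, nor how many cultures were grown. With 1 control library, p-values rest on the spread between the 2 guide libraries, moderated over all tested genes. That spread holds the difference between the guides and may be partly technical.

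Complement is a cascade of secreted proteins and receptors that marks and lyses foreign or damaged cells. The classical and lectin pathways start from proteases bound to recognition molecules, cleave C4 and C2, and meet the alternative pathway at the cleavage of C3. Later components assemble the membrane attack complex, and soluble and membrane-bound regulators stop the cascade on host cells. The liver makes most plasma complement, and epithelial cells, fibroblasts and macrophages make many of the same proteins locally.

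The libraries held 43424212 counts (control), 44667861 (sg1) and 51066078 (sg2). Kdm1a itself had 11468, 3950 and 5716 counts, which were 0.331 of the control level with sg1 and 0.427 with sg2. Its log2 fold change of -1.40 (SE 0.404) missed the threshold of 0.05 (adjusted p = 0.0537, edgeR's quasi-likelihood test), with both guides below the control. In all, 15936 genes were tested. Of these, 1279 (8.03%) were called, 1008 (6.33%) higher and 271 (1.70%) lower in the knock-out. Neuroendocrine markers, which define the labelled tumour type, were present in every library.

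Among the 9 genes, 4 were called higher in the Kdm1a knock-out (C3, C4b, C1ra and Clu) and none lower. Cfb, Cfi, Cd55 and Cd59a were not called, and Serping1 was too low to be tested. In bulk RNA, a change in the number of expressing cells and a change in RNA per cell cannot be told apart. The share of all tested genes called higher was 6.33%. In the control, C4b and C1ra had 0 counts, C3 had 6 and Clu 7, all too few for the filter on low counts. These 4 genes could enter the test only through the guides, so the number called among the 8 tested genes is a description. No gene of the 9 was called lower by DESeq2, limma-voom or limma-trend either, and none was lower at an unadjusted p under 0.05 in edgeR.

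**Figure D1:**
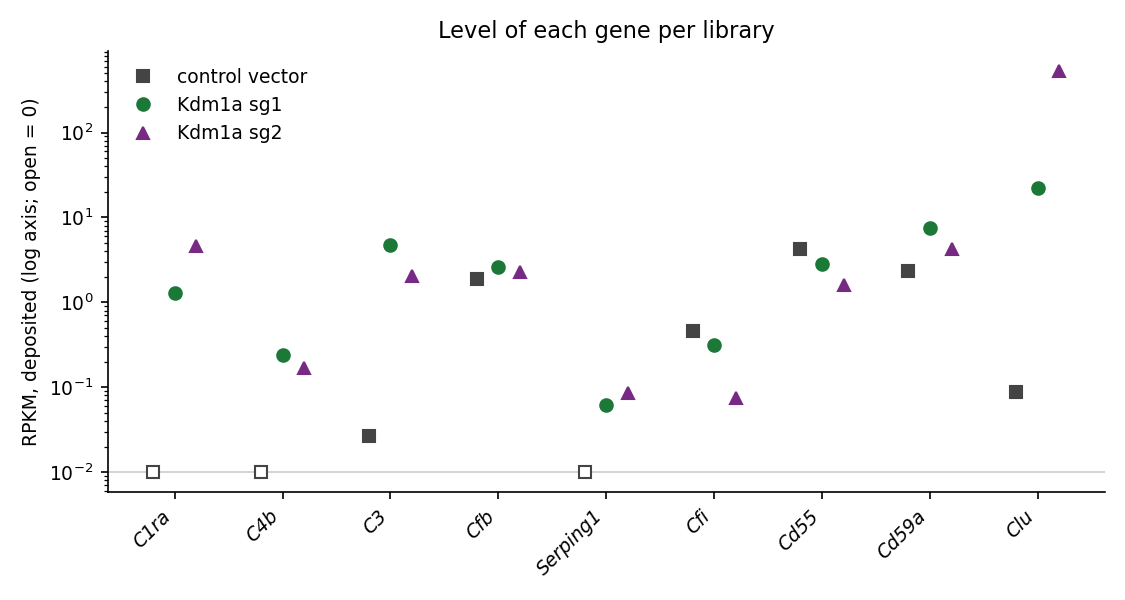
Deposited RPKM, the authors' reads per length of gene and depth of library, of the 9 genes in each library on a log axis, with open symbols for a value of 0. Squares are the control vector, circles sg1 and triangles sg2. Clu runs from 0.0884 in the control to 534 with sg2, whereas Cfb stays between 1.87 and 2.59.

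On the length-scaled RPKM level, the order of the genes differed between the libraries. In the control, the membrane regulators Cd55 (4.27) and Cd59a (2.35) stood first, followed by Cfb (1.87), Cfi (0.463), Clu (0.0884) and C3 (0.0267), and C4b, C1ra and Serping1 were at 0. With sg1 the order was Clu (22.4), Cd59a (7.58), C3 (4.77), Cd55 (2.83), Cfb (2.59), C1ra (1.29), Cfi (0.310), C4b (0.243) and Serping1 (0.0610). With sg2 it was Clu (534), C1ra (4.66), Cd59a (4.22), Cfb (2.30), C3 (2.05), Cd55 (1.58), C4b (0.169), Serping1 (0.0852) and Cfi (0.0748). With 1 library per condition, no spread is available to say which neighbours in these orders differ. The counts of the 9 genes summed to 939 (control), 4445 (sg1) and 52035 (sg2). Clu made up 0.745% of the control's sum, 41.1% with sg1 and 95.8% with sg2, and without it the sums were 932, 2618 and 2196.

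C1ra encodes a C1r serine protease, which in the C1 complex activates C1s. Its counts were 0 (control), 160 (sg1) and 665 (sg2), or 0, 3.54 and 13.1 CPM (counts scaled to library size). Both guides lay above a control in which no read was counted, and sg2 was 3.71 times sg1 (95% exact counting interval 3.12 to 4.44). A count of 0 allows up to 3 counts per library, which is 0.0692 CPM in the control. Against that limit C1ra was at least 121-fold higher in the knock-out (8.35 ± 6.79 CPM, SD, n = 2; adjusted p = 0.000988, edgeR's quasi-likelihood test), at least 51.2-fold with sg1 and at least 190.1-fold with sg2. The call was lost with limma-voom (adjusted p = 0.0613) and with limma-trend on log2(RPKM + 1) (adjusted p = 0.211). Over all tested genes these settings called 513 and 27 higher, against 1008 in the main test. Over the 8 alternatives the adjusted p of C1ra ranged from 6.27e-10 to 0.211. Of the 125-base windows of its transcripts, 24.0% (778 of 3243) also occur in its neighbour C1rb, but C1rb had 0, 0 and 2 counts. Counting intervals and limits cover counting error only, since no molecular identifiers are described for the reads, which may not be independent molecules.

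C1ra lies at chr6:124512621-124523440 (GRCm38, the assembly behind mm10), in a 143 kb stretch with C1rl, C1s1, C1rb and C1s2. C1s1 encodes the C1s protease that cleaves C4 and C2. It had 0, 349 and 534 counts in the control, sg1 and sg2, at least 132-fold higher in the knock-out (9.14 ± 2.0 CPM, SD, n = 2; adjusted p = 0.000231, edgeR's quasi-likelihood test). C1rl, a C1r-like protease gene, had 2, 30 and 122 counts, a pooled ratio to the control of 34.4 (counting interval 9.37 to 287), and missed the threshold (adjusted p = 0.0751). C1s2 had 5, 2 and 18 counts and was not called. The stretch thus held 2 genes called higher, C1rl above the control but not called, and 2 with at most 18 counts in any library. The difference between neighbours was not tested.

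Because C1ra and C1rb are close copies with different counts, their promoters are shown. They are RefSeq sequences on GRCm38.p6 from 250 bases before to 50 bases after the annotated start, plus strand for both, C1ra at chr6:124512371-124512670 and C1rb at chr6:124570180-124570479. Capitals mark a C/EBP motif (TTGCNNAA or its reverse complement) and a STAT-type GAS motif (TTCNNNGAA).
C1ra: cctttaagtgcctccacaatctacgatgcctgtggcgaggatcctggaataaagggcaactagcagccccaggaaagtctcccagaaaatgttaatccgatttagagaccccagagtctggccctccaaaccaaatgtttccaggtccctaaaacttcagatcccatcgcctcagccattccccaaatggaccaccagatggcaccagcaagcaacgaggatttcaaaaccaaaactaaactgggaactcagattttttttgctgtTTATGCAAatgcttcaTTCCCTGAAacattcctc
C1rb: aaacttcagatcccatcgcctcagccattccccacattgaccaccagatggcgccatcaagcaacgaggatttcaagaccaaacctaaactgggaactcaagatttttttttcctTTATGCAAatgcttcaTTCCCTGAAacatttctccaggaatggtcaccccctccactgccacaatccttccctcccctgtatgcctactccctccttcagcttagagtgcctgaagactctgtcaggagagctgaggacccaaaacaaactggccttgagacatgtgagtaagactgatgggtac

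The C/EBP and GAS matches of C1ra lie at +17 to +24 and +33 to +41 from the annotated start, counting the start as +1. In C1rb the same letters lie at -135 to -128 and -119 to -111. Both sit in a block shared by the pair, in which 139 of 148 aligned bases are identical with 2 gaps. The block spans -99 to +50 in C1ra and -250 to -102 in C1rb. Of all 32851 promoters of this length, 10.8% hold the C/EBP motif and 8.30% the GAS motif on either strand. The matches do not overlap each other and are a description of the letters, not of binding.

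Masp1, which encodes a protease of the lectin pathway, had 0 counts in the control against 689 (sg1) and 891 (sg2). It was at least 238-fold higher in the knock-out (16.4 ± 1.66 CPM, SD, n = 2; adjusted p = 7.12e-05, edgeR's quasi-likelihood test). C1qa, C1qb and C1qc, which encode the recognition molecule of the classical pathway and are made mainly by macrophages, had 2, 0 and 0 counts, 0 in all and 0 in all. Of the 17 other genes of the classical and lectin pathways, 7 were tested and 2 were called higher, C1s1 and Masp1. Both were at 0 in the control and could enter the test only through the guides, and the share of all tested genes called higher was 6.33%. Both calls were lost with limma-trend on log2(RPKM + 1) (adjusted p = 0.0779 and 0.0672) and held in the other 7 alternatives.

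C4b encodes complement C4, the substrate of C1s and MASP proteases. Its counts were 0 (control), 59 (sg1) and 47 (sg2), or 0, 0.243 and 0.169 RPKM. The guides lay close together, with sg1 1.41 times sg2 (0.943 to 2.11), and both lay above the control. C4b was at least 16.2-fold higher in the knock-out (1.12 ± 0.267 CPM, SD, n = 2; adjusted p = 0.0316, edgeR's quasi-likelihood test). The call held in 3 of the 7 alternatives that tested it, over which the adjusted p ranged from 0.00303 to 0.517, and was lost with scaling by library totals (0.0527), limma-voom (0.0937) and limma-trend with either pseudocount (0.517 and 0.314).

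C4b (chr17:34728139-34743902) is one end of a 154 kb stretch with C4a, Cfb and C2. C4a, a near copy of C4b, had 21, 29 and 32 counts in the control, sg1 and sg2 (log2 fold change 0.40, adjusted p = 0.925, edgeR's quasi-likelihood test). How the authors' counting divides reads between C4a and C4b is not given in the sources used here, so both values are uncertain. C2, the other subunit of the classical C3 convertase, had 10, 53 and 25 counts (log2 fold change 1.84, adjusted p = 0.569).

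**Figure D2:**
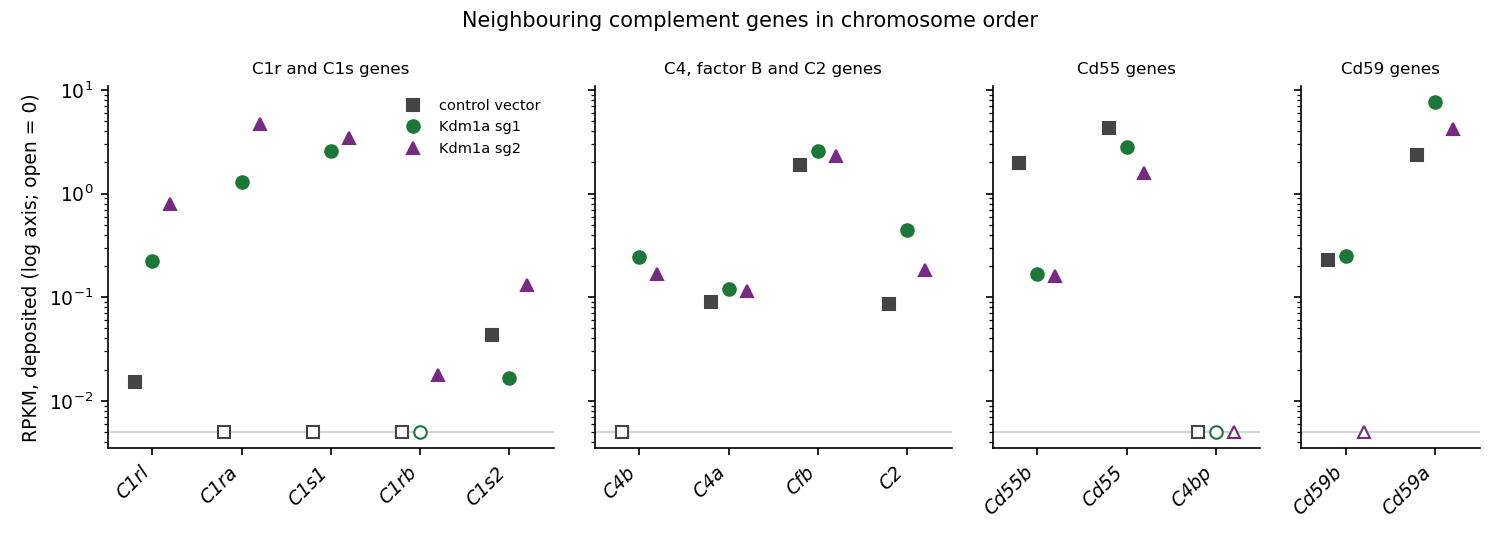
Deposited RPKM of complement genes that lie next to each other, in chromosome order, on a log axis with open symbols for 0. Squares are the control vector, circles sg1 and triangles sg2. C1ra and C1s1 are at 0 in the control and above 1 RPKM with both guides, and C1rb is at or near 0 in all 3 libraries.

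C3 (chr17:57203967-57228136) encodes the central component on which all pathways converge. Its counts were 6 (control), 1103 (sg1) and 542 (sg2), or 0.0267, 4.77 and 2.05 RPKM. The guides did not overlap the control, and sg1 was 2.28 times sg2 (2.06 to 2.53). C3 was 127-fold higher in the knock-out (17.6 ± 9.70 CPM, SD, n = 2, against 0.138; log2 fold change 6.96, SE 0.927; adjusted p = 0.000424, edgeR's quasi-likelihood test). With sg1 alone the ratio was 177 (80.9 to 482) and with sg2 alone 77.5 (35.4 to 212). The call was lost with limma-trend on log2(RPKM + 1) (adjusted p = 0.128; range over the 8 alternatives 1.58e-13 to 0.128).

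The promoter of C3 (chr17:57228087-57228386, minus strand, RefSeq, GRCm38.p6) is shown because C3 was called higher and stands at the centre of the cascade. Capitals mark a C/EBP match at -45 to -38 and a TATA box (TATAAA) at +15 to +20 from the annotated start.
C3: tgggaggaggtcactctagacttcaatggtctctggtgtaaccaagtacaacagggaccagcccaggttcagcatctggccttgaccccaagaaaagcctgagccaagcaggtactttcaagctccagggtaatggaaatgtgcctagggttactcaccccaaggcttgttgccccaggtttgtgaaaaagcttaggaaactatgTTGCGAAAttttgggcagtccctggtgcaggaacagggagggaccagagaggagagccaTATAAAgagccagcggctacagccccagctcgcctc

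The TATA box letters lie downstream of the annotated start. They occur in 13.6% of all promoters of this length. No GAS, ISRE, NF-kappaB or AP-1 (TGANTCA) letters were found in this window on either strand. In the tested table, the genes whose log2(CPM + 0.5) lay nearest to C3 over the 3 libraries were Ccdc141 (Euclidean distance 0.170; 9, 1150 and 565 counts), Colec12 (0.252; 2, 1069 and 585 counts) and Cav1 (0.268; 8, 1225 and 626 counts). Nearest to C1ra were Igf2bp1 (0.254), Mr1 (0.261) and Serpinb6b (0.268), each at 0 counts in the control. Predicted genes (Gm number, LOC or Rik symbols) were left out of this search.

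Cfb (chr17:34856374-34862514) encodes factor B, the protease subunit of the alternative C3 convertase. Its counts of 225 (control), 321 (sg1) and 326 (sg2) correspond to 1.87, 2.59 and 2.30 RPKM. Both guides were slightly above the control, at ratios of 1.37 (1.15 to 1.63) and 1.24 (1.05 to 1.48). The difference did not pass the test (5.19 CPM in the control and 6.78 ± 0.470 in the knock-out, SD, n = 2; log2 fold change 0.39, SE 0.622; adjusted p = 0.837, edgeR's quasi-likelihood test). Of the transcript windows of Cfb, 66.6% also occur in Gm20547, an overlapping gene model with no row in the table, so its counts are uncertain. Other alternative pathway genes gave no call among 2 tested of 6 (none at an unadjusted p under 0.05, by DESeq2, or by limma). Cfp, which encodes properdin, the stabiliser of that convertase, had 454, 426 and 469 counts (log2 fold change -0.16, adjusted p = 0.932).

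Cfi and Serping1, which encode soluble regulators, had at most 42 counts in any library. Cfi (chr3:129836727-129875332) encodes factor I, the protease that inactivates C3b and C4b, and had 42 (control), 29 (sg1) and 8 (sg2) counts. Both guides lay below the control, but the counting interval of the sg1 ratio included 1 (0.663, 0.399 to 1.09) and that of sg2 did not (0.163, 0.0662 to 0.352). Cfi did not pass the test (log2 fold change -1.27, SE 1.24; adjusted p = 0.696, edgeR's quasi-likelihood test). Serping1 (chr2:84765360-84775444) encodes the C1 inhibitor, which blocks C1r, C1s and the MASP proteases. With 0, 5 and 8 counts it was removed by the filter on low counts. Its mean level over both guides was 1.94 times the control's limit, with the counting error of the guides left out.

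By RPKM, Cd55 and Cd59a, which encode membrane regulators, were the most abundant of the 9 genes in the control. Cd55 (chr1:130429798-130465009) encodes decay-accelerating factor, which takes apart C3 convertases on the cell surface. Its counts were 473 (control), 322 (sg1) and 206 (sg2), or 4.27, 2.83 and 1.58 RPKM. Both guides lay below the control, at ratios of 0.654 (0.566 to 0.755) and 0.373 (0.316 to 0.441), and sg1 was 1.75 times sg2 (1.47 to 2.10). The difference did not pass the test (log2 fold change -0.96, SE 0.599; adjusted p = 0.468, edgeR's quasi-likelihood test). In the authors' deposited table of down genes, which held 2154 genes (8.78%), Cd55 is listed with folds of 0.661 and 0.370.

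Cd55b, the neighbouring copy of Cd55 at chr1:130388526-130423097, had 114 (control), 10 (sg1) and 11 (sg2) counts. Both guides were far below the control. The level fell from 2.63 CPM to 0.2195 ± 0.00285 (SD, n = 2), a log2 fold change of -3.57 (SE 1.01; adjusted p = 0.0487, edgeR's quasi-likelihood test). It was the only one of the 24 tested other complement genes called lower, beside 1.70% of all tested genes called lower. The call held in 3 of 7 alternatives (adjusted p from 0.00840 to 0.0828). Between the Cd55 and Cd55b transcripts 3.48% of the 125-base windows of Cd55 are shared.

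Their promoters are shown because the copies had different counts (RefSeq, GRCm38.p6, minus strand, Cd55 at chr1:130462695-130462994 and Cd55b at chr1:130422994-130423293). Capitals mark a TATA box in Cd55b at -197 to -192, and none of the 6 motifs searched was found in Cd55. The annotated starts of these windows lie 2265 bases (Cd55) and 54 bases (Cd55b) inside the gene spans given above, so the Cd55 window belongs to another annotated start than the outermost.
Cd55: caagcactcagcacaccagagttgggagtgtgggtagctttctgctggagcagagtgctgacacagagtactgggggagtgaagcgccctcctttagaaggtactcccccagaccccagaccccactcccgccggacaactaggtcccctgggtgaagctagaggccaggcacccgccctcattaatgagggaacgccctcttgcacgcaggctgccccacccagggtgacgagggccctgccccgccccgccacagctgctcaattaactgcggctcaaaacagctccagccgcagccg
Cd55b: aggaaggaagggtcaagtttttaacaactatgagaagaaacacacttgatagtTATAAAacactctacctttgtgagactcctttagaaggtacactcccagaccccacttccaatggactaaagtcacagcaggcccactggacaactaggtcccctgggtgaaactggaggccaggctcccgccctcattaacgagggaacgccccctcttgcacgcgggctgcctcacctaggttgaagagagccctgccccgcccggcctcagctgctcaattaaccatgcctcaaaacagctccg

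In their shared block 176 of 201 aligned bases are identical with 20 gaps. The Cd55 window holds 12 CpG dinucleotides at 63.3% GC and that of Cd55b 8 at 53.3%, against medians of 7 and 52.7% over all promoters.

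Cd59a (chr2:104095753-104115410) encodes a membrane protein that blocks assembly of the membrane attack complex. Its counts were 186 (control), 619 (sg1) and 394 (sg2), or 2.35, 7.58 and 4.22 RPKM. Both guides lay above the control, at ratios of 3.20 (2.71 to 3.79) and 1.82 (1.52 to 2.17), and sg1 was 1.76 times sg2 (1.55 to 2.0). The difference did not pass the test (log2 fold change 1.33, SE 0.635; adjusted p = 0.30, edgeR's quasi-likelihood test). The authors' deposited table of up genes, with 1833 genes (7.47%), lists Cd59a along with C1ra, C3 and Clu. C4b, called higher in the edgeR test, is not in it. Cd59b, the copy of Cd59a, had 8, 9 and 0 counts.

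Clusterin, the product of Clu (chr14:65968483-65981548), is a secreted chaperone that binds terminal complement complexes. Clu had 7 (control), 1827 (sg1) and 49839 (sg2) counts, or 0.0884, 22.4 and 534 RPKM. The guides lay far apart from each other as well as from the control, with sg2 at 24.3 times sg1 (23.2 to 25.5). By RPKM, Clu ranked at 14898 (control), 4118 (sg1) and 68 (sg2) among the 24523 genes. It was higher in the knock-out (513 ± 668 CPM, SD, n = 2, against 0.161; log2 fold change 11.61, SE 1.96; adjusted p = 0.00222, edgeR's quasi-likelihood test). The size depended on the guide, at a ratio of 251 (121 to 625) with sg1 alone and 6106 (2963 to 15188) with sg2 alone. The call was lost with limma-voom (adjusted p = 0.215) and with limma-trend on log2(RPKM + 1) (adjusted p = 0.141; range over the 8 alternatives 4.57e-20 to 0.215).

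**Figure D3:**
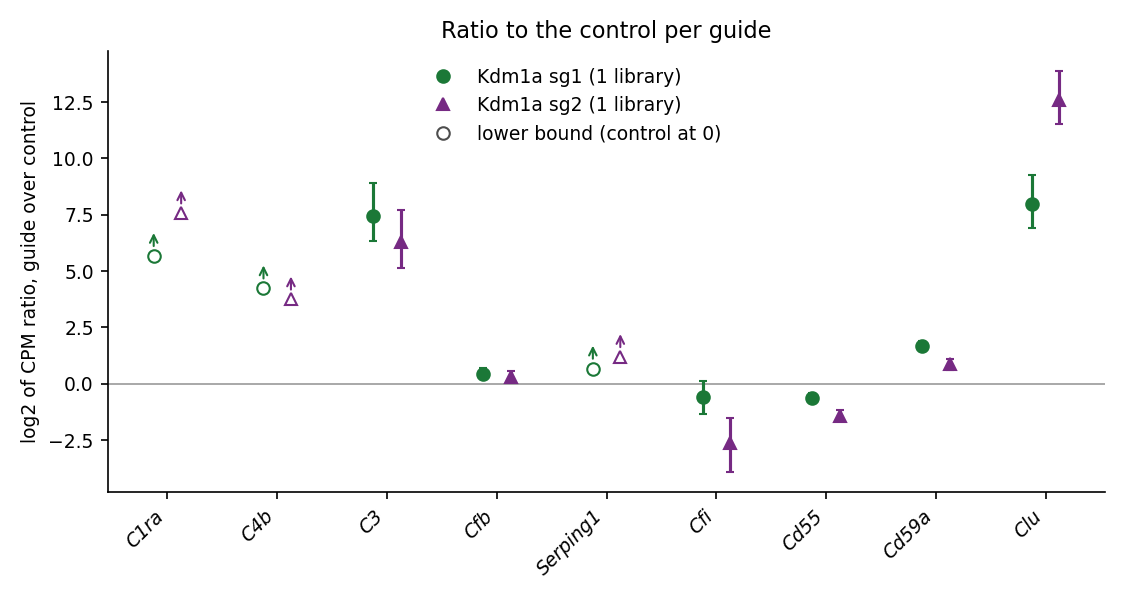
Log2 ratio of each guide to the control for the 9 genes, in CPM, with 95% exact counting intervals, and lower bounds for genes at 0 counts in the control. Clu with sg2 is the largest ratio, and Cd55 and Cfi lie below 0 with both guides.

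The guides differed by more than counting error for 6 of the 9 genes, which is no larger a share than the 77.6% (12360) of the 15936 tested genes for which they did so. C3, Cfi, Cd55 and Cd59a were higher with sg1, and C1ra and Clu with sg2. Among the tested genes, 41 had a larger absolute log2 difference between the guides than Clu (4.60), 861 than C1ra (1.88), 1015 than Cfi (-1.77), 2230 than C3 (-1.19), 4053 than Cd59a (-0.81), 4127 than Cd55 (-0.80), 7638 than C4b (-0.47) and 13204 than Cfb (-0.14). Nearest to Clu were Acta2 (distance 2.38, with 0, 6774 and 18874 counts) and Cnn2 (2.43, with 77, 2994 and 17640 counts). Vim followed (2.77, with 0, 11713 and 32362 counts). None of the genes searched, which left out predicted genes, lay as close to Clu as Ccdc141 did to C3. Kdm1a itself was at 0.331 of the control with sg1 and 0.427 with sg2, and its part in these differences was not tested.

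**Figure D4:**
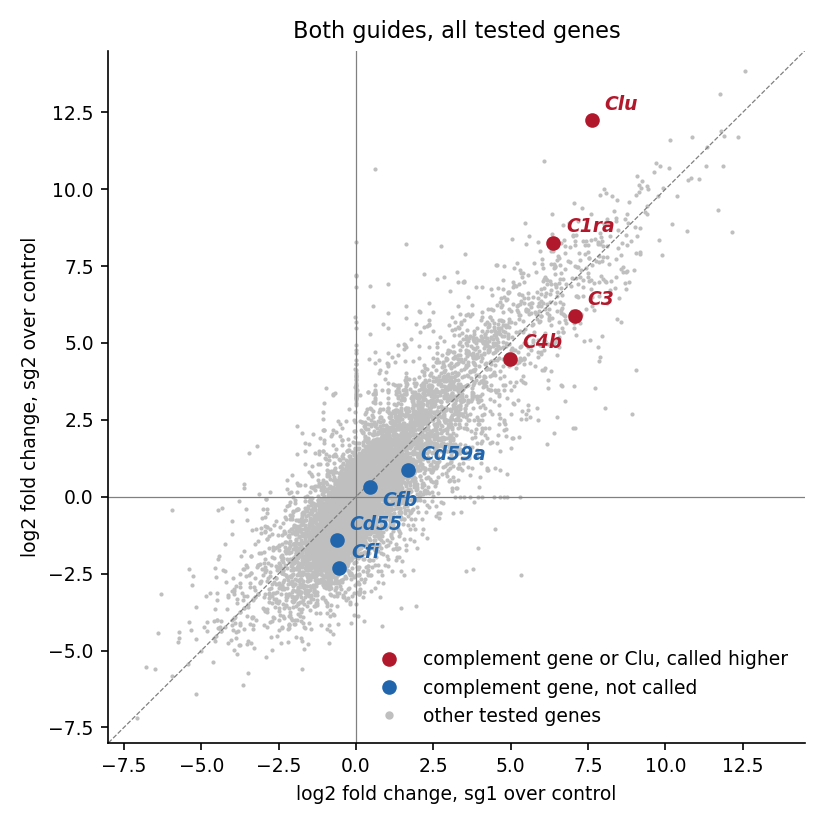
Log2 fold change with sg1 (horizontal) against sg2 (vertical) for the tested genes, fitted with a prior count of 2, with the tested 8 of the 9 genes marked. Clu lies farthest above the diagonal of the marked genes. Both axes share the same control library, so their agreement is not independent.

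Among the 54 other complement genes, 24 were tested, 2 were called higher, 1 lower and 21 not called, and 12 had no count in any library. The share called was 12.5%, against 8.03% of all tested genes, and the median log2 fold change was 1.28 (1.09 with genes at 0 in the control set to their bounds), against 0.06. Of the 24, 7 were at 0 in the control, as were 600 of all tested genes (3.77%). Such genes pass the filter on low counts only through the guides, and 43.5% of the 600 were called higher, so the list's share and median are a description. Of the 14 other regulators, 9 were tested and Cd55b alone was called. Cr1l, which encodes the mouse membrane regulator Crry, had 833, 1142 and 1170 counts (log2 fold change 0.33, adjusted p = 0.811, edgeR's quasi-likelihood test), and Cd46 had 31, 14 and 12 (-1.38, adjusted p = 0.676). Genes of the terminal pathway were near the limit of detection, with 28, 28 and 27 counts in sum over 7 genes. The 1 tested, C8g, had 27, 14 and 5 counts (adjusted p = 0.646, unadjusted p = 0.268, and not called by DESeq2 or limma). Of 10 receptor genes 5 were tested and none was called by edgeR (1 with no filter), DESeq2 or limma, with 1 at an unadjusted p under 0.05. That gene was Cd93, a C1q-binding receptor gene, with 0, 46 and 15 counts (adjusted p = 0.102).

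Inflammatory cytokines induce many complement genes through STAT and C/EBP factors, and acute-phase genes answer to the same signals. Of 17 tested genes of a cytokine signalling list, 5 were called higher (6.33% of all tested genes) and none lower, with a median log2 fold change of 1.31 against 0.06 over all tested genes. Il1r1, the interleukin-1 receptor gene, had 2, 619 and 744 counts and could enter the test only through the guides. Its pooled ratio was 309 (85.3 to 2553, adjusted p = 0.000149 in edgeR's quasi-likelihood test). Jak1, a kinase of cytokine receptors, had 400, 4275 and 5920 counts and was 11.5-fold higher (adjusted p = 0.00082). Cebpb had 175, 2010 and 2454 counts and was also 11.5-fold higher (adjusted p = 0.00112), and Cebpd had 230, 950 and 1477 and was 4.74-fold higher (adjusted p = 0.026); both encode C/EBP factors. The fifth, Stat3, was 3.89-fold higher (2101, 9281 and 8685 counts; adjusted p = 0.0177) and falls outside the rule for named genes. With sg2 these 5 genes stood at 0.835 to 1.39 times their level with sg1.

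Of 18 acute-phase genes, 10 were tested, 4 were called higher and none lower. Of the 10, 6 were at 0 in the control and could enter the test only through the guides, among them Lcn2, Saa3 and Serpina3g of the 4 called, so the count is a description beside the 6.33% of all tested genes called higher. Cp, which encodes the plasma copper protein ceruloplasmin, had 15, 3427 and 1758 counts and was 160-fold higher (adjusted p = 0.000117, edgeR's quasi-likelihood test). Lcn2, an iron-sequestering protein gene, had 0, 246 and 141 counts (at least 59.5-fold, adjusted p = 0.0018), Saa3 had 0, 42 and 55 (at least 14.6-fold, adjusted p = 0.0385) and Serpina3g 0, 86 and 68 (at least 23.5-fold, adjusted p = 0.0137). Like C3, Cp and Lcn2 had more counts with sg1 than with sg2. No gene of either list was called lower by DESeq2 or limma, or was lower at an unadjusted p under 0.05. None of the calls in either list was made with limma-trend on log2(RPKM + 1), and the calls held in 4 of 7 alternatives for Saa3 and in 5 of 8 for Serpina3g and for Cebpd.

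**Figure D5:**
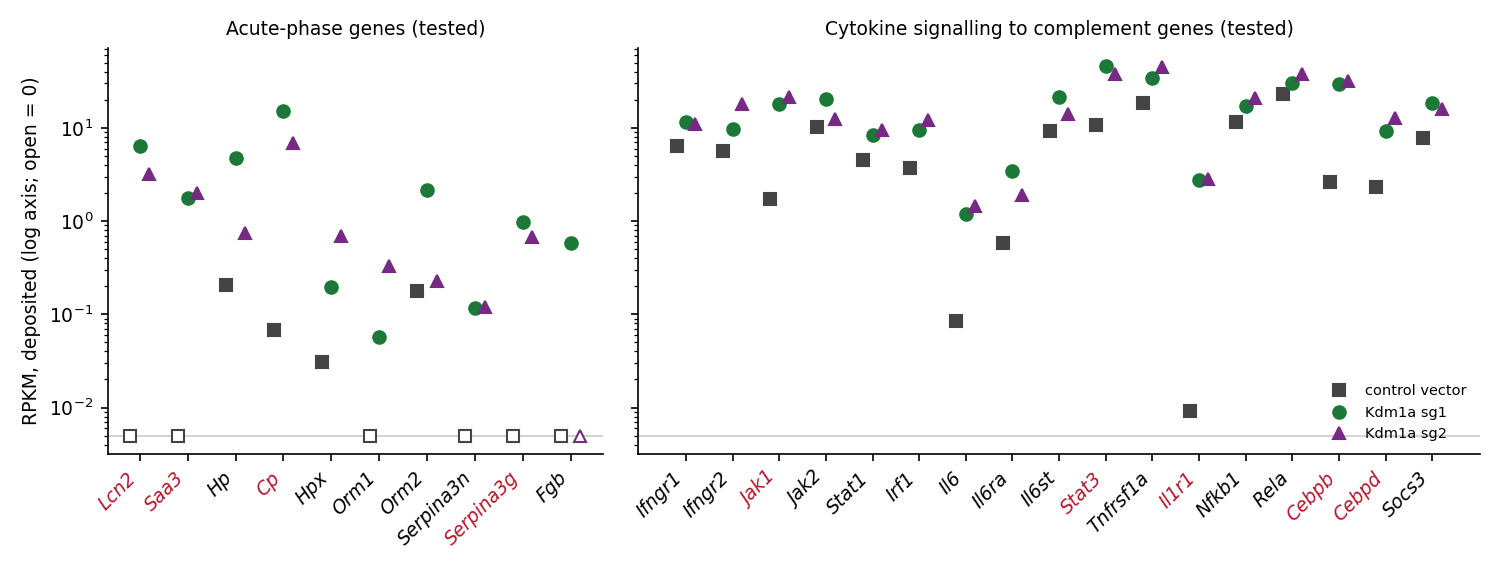
Deposited RPKM of the tested acute-phase and cytokine signalling genes on a log axis, with open symbols for 0 and red names for genes called higher. Squares are the control vector, circles sg1 and triangles sg2. The called acute-phase genes are at 0 or below 0.1 RPKM in the control.

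Markers of cell types are given as context, and whether they moved with the complement genes was not tested. Of 8 fibroblast markers 7 were tested and 4 were called higher (Col1a1, Col3a1, Pdgfra and Pdgfrb). Over all tested genes, 6.33% were called higher and 1.70% lower. Col1a1 and Col3a1, with 4 and 2 control counts, could enter the test only through the guides. The list's summed levels were 2.61, 389 and 160 CPM in the control, sg1 and sg2, with Col1a1 at 0.0922, 224 and 54.4. Col1a2 was not called (0, 15 and 6 counts), and the fibroblast gene Lum had 0 counts in all 3 libraries. The part of the fibroblast markers in the complement results was not tested. Of 12 macrophage and leukocyte markers 3 were tested, and Cd14 (0, 132 and 85 counts), which could enter the test only through the guides, was called higher. The sums of this list were 5.0, 13.2 and 8.36 CPM, most of it from Cd68 (4.52, 9.17 and 6.11 CPM, not called). Adgre1 and Tyrobp were at 0 in all libraries and Ptprc had 0, 0 and 1 counts. Of 10 hepatocyte markers 9 had a row, 1 was tested and none was called by edgeR, DESeq2 or limma (none at an unadjusted p under 0.05), with sums of 0.622, 1.51 and 0.850 CPM and Alb at 0 in all libraries. The alveolar and club cell list had 10 tested genes with sums of 89.1, 129 and 71.9 CPM, most of it from Abca3 (3657, 3099 and 2281 counts, not called). Sftpb (4, 1166 and 910 counts, pooled ratio 235, 91.7 to 864) and Sftpa1 (0, 141 and 66 counts) were called higher. These calls held in 7 and 5 of 8 alternatives, and both genes could enter the test only through the guides. Cyp2f2 (37, 0 and 0 counts), which could enter only through the control, was called lower, in 3 of 7 alternatives. Their part in the complement results was not tested. The neuroendocrine list had 10 tested genes with Calca higher and Neurod1 and Chga lower (the calls held in 3, 7 and 3 of 8 alternatives), and its summed level was 4260 CPM (control), 2935 (sg1) and 2076 (sg2).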

How the data were processed

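RNA of 3 libraries was measured by sequencing. The authors deposited raw read counts per gene and, in the same table, RPKM per the file headers, and lists of up and down genes of which the down list gives deposited fold ratios of RPKM. The submitters' processing notes name HTSeq 0.6.1, TopHat2 2.0.12, Bowtie2 2.2.3 and mm10; how each was set, and how multi-mapping reads and strand were treated, is not given in the sources used here.

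Counts were tested with edgeR 4.0.16 (R 4.3.3; TMM, filterByExpr, quasi-likelihood F test, control against both guides, Benjamini-Hochberg over 15936 genes; 8587 not tested). Only the 2 guides give a spread (residual degrees of freedom 1, prior 11.5), so the control library is assumed to vary as they do. The common coefficient of variation was 0.387. An SE is the log2 fold change divided by the root of its F statistic. Values in CPM use TMM library sizes, and fold changes without an SE are ratios of mean CPM. Both guides share the control. Alternatives used DESeq2 1.42.0, limma 3.58.1, other scalings, filters and pseudocounts of 1 and 0.1 on RPKM, and each guide left out. A gene at 0 counts was set to 3 counts per library for bounds, which leave out the counting error of the guides. Intervals are exact binomial, computed with scipy 1.17.1. Promoters and positions come from RefSeq tables (GRCm38.p6, promoters for 4 of the 9 genes), and transcript windows from the reference transcripts. The transcript set used here held no C4a. The scripts were tested on simulated data.

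The 9 genes and all gene lists were chosen with earlier results of these data known. Named genes are Kdm1a, the 9 genes, up to 4 called genes per list with the largest fold change (up to 2 where none passed), untested list genes by their counts, and the 3 nearest tested genes of up to 4 of the 9. C4a, C2, C1rl, C1s2, Cr1l, Cd46, Abca3, Cd68, Col1a2 and Stat3 were named for their place beside the 9 genes or as list context after their values were seen. A few list genes are not reported here.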

Additional observations from a re-analysis of the deposited data

How the results depend on the processing

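No paired analysis was possible because the control has 1 library and shares no replicate pairs with the guides. Of the 9 genes, 4 were called higher in the main test, 1 with limma-voom and 0 with limma-trend on log2(RPKM + 1). Over all tested genes, the numbers called higher were 1008, 513 and 27 in the same order. None of the 9 was called lower in any of the alternatives. Of the other complement genes, 2 of 24 tested were called higher in the main test. The numbers were 5 of 42 with no filter, 4 of 17 with the DESeq2 Wald test and 0 of 24 with limma-trend on log2(RPKM + 1). Over all genes tested in these settings, 1008 of 15936, 1381 of 18738, 1340 of 15164 and 27 of 15936 were called higher, in the same order. The 1 called lower became 0 with library totals, a mean count of at least 50, limma-voom and limma-trend with either pseudocount. Kdm1a had a log2 fold change of -1.41 with DESeq2 size factors (adjusted p = 0.0498), -1.39 with no filter (0.0166) and -1.41 with the DESeq2 Wald test (0.0251), and ranged from -1.23 to -1.59 with 1 guide left out. The cause was not tested. Without sg1 the log2 fold change of Clu was 12.23 and of C3 5.89, and without sg2 they were 7.63 and 7.08, as values without a test. No result reversed. Cfb, Cfi, Cd55 and Cd59a passed in none of their alternatives. The unreplicated control and the low counts of C4b, Cfi and Serping1 limit what could be detected.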

Other observations

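The Csmd genes, which encode large membrane proteins with complement control domains, had more counts with sg1 than with sg2. Csmd1 had 4 (control), 244 (sg1) and 37 (sg2) counts (log2 fold change 5.01, adjusted p = 0.0568, edgeR's quasi-likelihood test). Csmd2 had 205, 1049 and 275 counts (1.60, adjusted p = 0.316) and Csmd3 7, 80 and 5 (2.51, adjusted p = 0.514), so none was called. The ratio of Csmd1 to the control was 58.6 (22.6 to 217) with sg1 and 7.93 (2.85 to 30.6) with sg2. By counting, sg1 was 7.39 times sg2 for Csmd1 (5.21 to 10.7), 4.27 times for Csmd2 (3.74 to 4.90) and 17.9 times for Csmd3 (7.37 to 56.7). Susd4, which encodes a complement inhibitor, went the other way from Cd59a, with 2141, 1384 and 839 counts (log2 fold change -1.06, adjusted p = 0.259), and is in the authors' deposited table of down genes. These genes were described after their values were seen.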
